A study of Homo sapiens with 8 samples.

Results

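CSMD1, CSMD2 and CSMD3 are the 3 human genes for large transmembrane proteins built from repeated CUB and sushi domains. They were taken here as all sequenced fragments whose position lies inside their RefSeq bodies, 3 of 19974 protein-coding genes in that table on the autosomes and X. CSMD1 covers 2060 kb of chromosome 8 (chr8:2935361-4994914, GRCh38), CSMD2 covers 652 kb of chromosome 1 (chr1:33513998-34165842) and CSMD3 covers 1214 kb of chromosome 8 (chr8:112222928-113436939). Nearly all of each body is intron. The annotation also places the testis gene HMGB4 and the antisense transcript CSMD2-AS1 inside CSMD2, and MIR2053 inside CSMD3, so those molecules are shared.

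The study mapped newly made DNA in single RPE-1 hTERT cells, a telomerase-immortalised human retinal pigment epithelial line, by scEdU-seq. Living cells took up EdU, a thymidine analogue, at 10 µM for 15 min, were fixed in ethanol and sorted, and the labelled DNA of each cell was sequenced. The 2 groups were wild type (WT) and CFAP20-KO (KO), a knockout of CFAP20, which the series title ties to RNA polymerase II in the path of replication forks. Both genotypes were grown and labelled in the same way, with no other treatment, and both were sorted onto each of 8 plates. The sources used here do not say how the knockout was made or whether it is 1 clone. The 8 plates held 26148975 fragments, 1746074 to 4181841 per plate, in 3023 wells (1594 WT, 1429 KO). Of these, 2430 cells (1290 WT, 1140 KO) had at least 1000 autosomal molecules and were used unless stated. Of 378 well barcodes, 377 occurred on all plates, each time as another cell.

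The CSMD proteins are best known from neurons, where CSMD1 is linked to control of complement and to synapse loss, and CSMD1 was first studied as a candidate tumour suppressor on the short arm of chromosome 8. Very long genes tend to replicate late and have few replication origins inside them, and several are known as fragile sites. A gene can lie wholly inside a late domain, or span the boundary where an early domain passes into a late one. No RNA was measured, so whether the 3 genes were transcribed in these cells is not known here.

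Of the 3 genes, only CSMD2 was matched in the RefSeq promoter table used here (GRCh38.p14). The 250 bases before its outer start are shown because the profile below places this start in late-replicating DNA, at the highest-coordinate end of a gene on the minus strand. Capitals mark CG pairs.

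CSMD2, chr1:34165843-34166092, minus strand, 5′ to 3′: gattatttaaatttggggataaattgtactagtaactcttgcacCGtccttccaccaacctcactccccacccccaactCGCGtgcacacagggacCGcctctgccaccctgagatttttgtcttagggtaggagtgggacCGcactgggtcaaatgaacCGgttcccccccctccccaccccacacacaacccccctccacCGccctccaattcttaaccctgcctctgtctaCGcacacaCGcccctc

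The window had 9 CG pairs and 56.8% G or C. Over 35116 windows of the same length in that table the median was 11 CG pairs, and 54.1% had at least 9. The letters TATAAA were absent on both strands (10.7% of windows hold them), and GGGCGG was present on at least 1 strand (42.6% of windows). The table lists 2 starts for CSMD2, and the window before the inner one has 23 CG pairs.

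Cells were placed in order from early to late by the overall pattern of their labelled DNA, and each cell's position runs from 0, early, to 1, late. The timing of a gene is the mean position of the cells in which it was labelled, weighted by molecules. All 3 genes were labelled on every plate, and all replicated later than the median of 8608 measured genes, which lay at 0.246. CSMD1 held 22075 molecules, CSMD3 13574 and CSMD2 6311.

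Weighted by molecules, the latest of the 3 was CSMD1. Its timing on the 8 plates was 0.771 at the lowest, 0.871 at the median and 0.914 at the highest, with a mean of 0.866 ± 0.0464 (SD, n = 8). Plate 8, the plate with fewest fragments, gave the lowest value. Only 33 of 8608 genes had a later mean. CSMD3 lay between 0.771 and 0.835, with a median of 0.804 and a mean of 0.804 ± 0.0180 (SD, n = 8), and 248 genes were later. CSMD2 lay between 0.531 and 0.656, with a median of 0.635 and a mean of 0.613 ± 0.0442 (SD, n = 8), and 1119 genes were later. CSMD2 did not overlap with either of the others on any plate.

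The order of the 3 genes was tested over plates by exact two-sided sign-flip permutation, with adjustment over the 3 differences. CSMD1 was later than CSMD2 by 0.254 ± 0.0553 (SD, n = 8) on 8 of 8 plates (exact permutation, adjusted p = 0.0117). CSMD3 was later than CSMD2 by 0.191 ± 0.0415, also on 8 of 8 plates (exact permutation, adjusted p = 0.0117). CSMD1 was later than CSMD3 by 0.0624 ± 0.0409 on 7 of 8 plates (exact permutation, adjusted p = 0.0156). This last difference depends on how cells are weighted. When every cell with a molecule in the gene counted equally, CSMD1 was earlier than CSMD3 by 0.0251, which also passed (exact permutation, adjusted p = 0.00781). The 3 means then closed up to 0.533, 0.514 and 0.558 for CSMD1, CSMD2 and CSMD3. The labels do not say that plates came from separate cultures, so these p-values measure the spread between plates.

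The order was cut into 10 deciles, and the last of them, decile 10, separates CSMD1 from CSMD3. It held 74.6% of the molecules of CSMD1, 39.4% of those of CSMD3 and 26.3% of those of CSMD2, against 19.7% of all autosomal molecules. The middle molecule of CSMD1 lay at position 0.958, that of CSMD3 at 0.882 and that of CSMD2 at 0.783. The first tercile, that is the earliest of 3 equal parts of the order, held 38.9% of all autosomal molecules. It held 4.88% of CSMD1, 5.74% of CSMD3 and 28.1% of CSMD2 molecules. CSMD2 was therefore labelled in cells of both ends of the order.

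Tracks show the same genes cell by cell. A track is a run of at least 3 molecules of 1 cell with gaps of at most 10 kb, and tracks were read in the 914 cells (483 WT, 431 KO) with at least 5000 molecules. No cell of deciles 1 to 3 had a track in CSMD1: in decile 1 it was 0 of 219 cells, for which the exact 95% interval reaches 1.67%. In decile 9, 36.4% of cells had one (56 of 154, exact 95% interval 28.8% to 44.5%) and in decile 10, 84.5% (186 of 220, 79.1% to 89.1%). CSMD3 had tracks in 0.913% of cells of decile 1, in 76.6% of decile 9 (118 of 154, 69.1% to 83.1%) and in 54.5% of decile 10 (120 of 220, 47.7% to 61.3%). CSMD2 had tracks in 26.0% to 68.8% of cells over the 10 deciles. These intervals cover counting error only, and decile 4 held 19 cells.

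These shares pool WT and KO cells, which are given apart here. In decile 9, tracks in CSMD1 were found in 55.1% of WT cells (43 of 78, exact 95% interval 43.4% to 66.4%) and 17.1% of KO cells (13 of 76, 9.43% to 27.5%), while in decile 10 the shares were 87.5% and 81.9%, with overlapping intervals. CSMD3 had tracks in 85.9% of WT cells of decile 9 (76.2% to 92.7%) and in 52 of the 104 of decile 10 (40.0% to 60.0%). In KO its shares were 67.1% (55.4% to 77.5%) and 58.6% (49.1% to 67.7%). Cells of all plates were pooled, so the intervals of these shares cover counting error and not the spread between plates. No difference in these shares between deciles or genotypes was tested. Earlier deciles held few cells: CSMD3 had tracks in 10 of 13 WT cells and 0 of 10 KO cells of decile 5 (76.9%, lower bound 46.2%, and 0%, upper bound 30.8%), and in 12 of 17 and 2 of 17 cells of decile 7. CSMD2 had tracks in 82.1% of WT cells (71.7% to 89.8%) and 55.3% of KO cells (43.4% to 66.7%) of decile 9, and in 57.7% (47.6% to 67.3%) and 22.4% (15.2% to 31.1%) of decile 10. A KO cell held 18271 molecules on average against 26082 in WT, and the part of this in these shares was not tested.

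**Figure D1:**
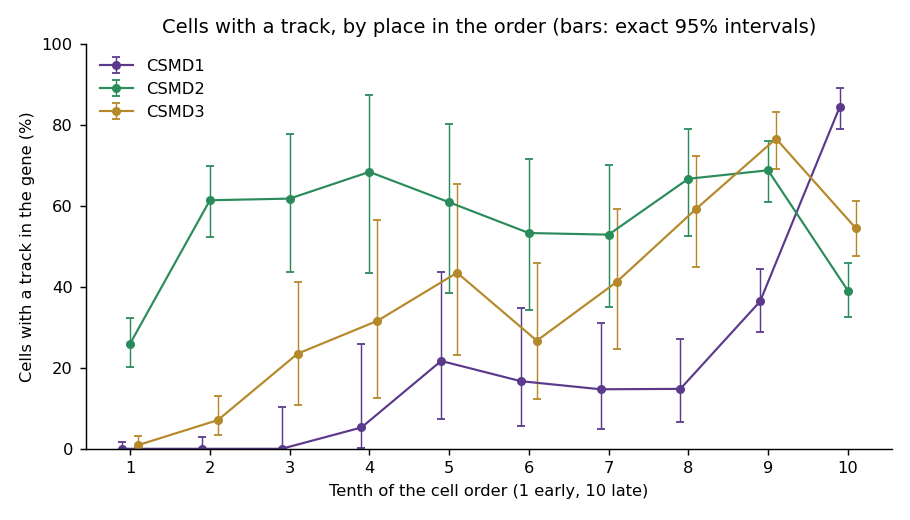
Share of cells of at least 5000 molecules with a track in each gene (percent, vertical axis) by decile of the cell order (horizontal axis, 1 early, 10 late), both genotypes together; bars are exact 95% binomial intervals. CSMD1 climbs to 84.5% in decile 10, CSMD3 peaks at 76.6% in decile 9, and CSMD2 is between 26.0% and 68.8% throughout.

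Cells labelled in CSMD1 carried many tracks in it at once. WT cells with any track in CSMD1 had 8.55 on average and at most 30, and KO cells had 8.04 and at most 39. For CSMD3 the means were 4.75 in WT and 4.76 in KO, and for CSMD2 1.69 and 1.49. These counts are not scaled by length, and CSMD1 covers 2060 kb, CSMD3 1214 kb and CSMD2 652 kb. Neighbouring tracks of 1 cell were centred a median of 79.0 kb apart in CSMD1 in WT and 81.7 kb in KO, 79.1 and 83.4 kb in CSMD3, and 71.6 and 66.9 kb in CSMD2. Among the 374 cells of deciles 9 and 10, 64.7% had a track in CSMD1, 63.6% in CSMD3 and 38.0% in both, where the product of the shares is 41.2%. Taken apart, decile 9 had 29.9% with both against a product of 27.9%, and decile 10 had 43.6% against 46.1%. No departure from the product was tested.

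Along the genes, timing was read in steps of 50 kb. CSMD1 was flat: its 40 whole steps lay between 0.825 and 0.895, with a SD over steps of 0.0145, and between 437 and 664 molecules each. Cut into 5 equal parts from the lowest coordinate, its part 5 differed from part 1 by 0.00520 ± 0.0164 (SD, n = 8; exact permutation, adjusted p = 0.484). CSMD3 was also late from end to end, with 23 steps between 0.728 and 0.839 and an end-to-end difference of 0.00641 ± 0.0256 (n = 8, exact permutation, adjusted p = 0.484). Within CSMD3 there was a shallow early dip. The steps starting at 112550001, 112600001 and 112650001 had timings of 0.740, 0.728 and 0.769, the 3 lowest of its 23 steps, and MIR2053 lies in the second of them. The dip was picked out after the profile had been seen.

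CSMD2 crossed almost the whole range. From part 1 to part 5, timing was 0.235 ± 0.0364, 0.460 ± 0.0476, 0.687 ± 0.0353, 0.769 ± 0.0507 and 0.814 ± 0.0311 (SD, n = 8). Part 5 was later than part 1 by 0.579 ± 0.0537 on 8 of 8 plates (exact permutation, adjusted p = 0.0234). Its 12 whole steps went from 0.248 to 0.831. Since the gene is read on the minus strand, its start sits at the late end and its 3′ end at the early end.

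**Figure D2:**
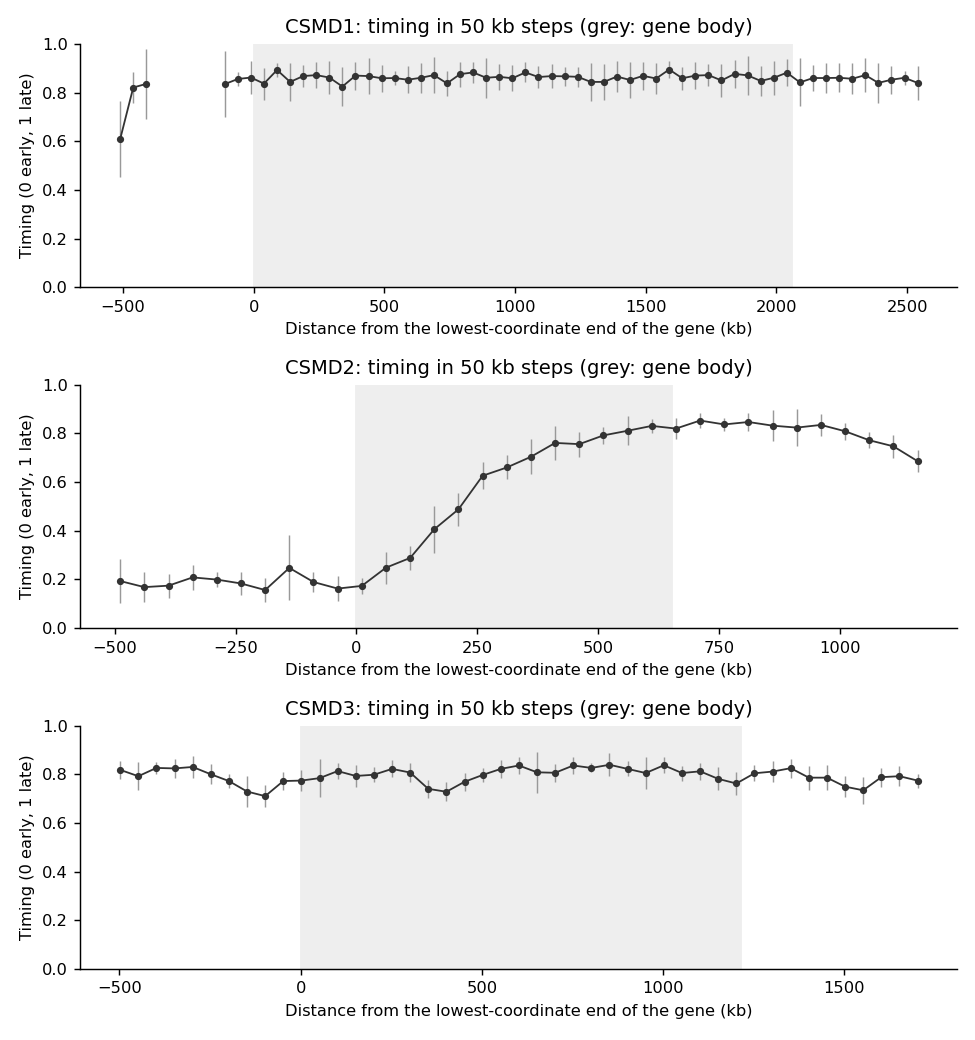
Timing (vertical axis, 0 early to 1 late; mean and SD over 8 plates) in 50 kb steps against distance from the lowest-coordinate end of each gene (kb, horizontal axis), with 500 kb beyond each side; grey marks the gene. CSMD1 and CSMD3 stay between 0.728 and 0.895, and CSMD2 climbs from 0.248 to 0.831. Steps with too few molecules on the low side of CSMD1 have no point.

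The surroundings repeat these shapes. CSMD2 was later than the 500 kb below it by 0.429 ± 0.0528 and earlier than the 500 kb above it by 0.204 ± 0.0371 (SD, n = 8), on 8 of 8 plates each (exact permutation, adjusted p = 0.0234). The timing of those flanks was 0.184 and 0.817. CSMD1 differed from its 500 kb flanks, at 0.858 on both sides, by 0.00847 ± 0.0318 and 0.00798 ± 0.0133 (n = 8, exact permutation, adjusted p = 0.469 and 0.206). The lower flank of CSMD1 held 1269 molecules, 127 per 50 kb against 536 in the gene, and its steps from 2650001 to 2800000 held 0. CSMD3 was later than its flanks, at 0.785 and 0.790, by 0.0191 ± 0.0212 and 0.0140 ± 0.0143 on 7 of 8 plates each, which did not pass (n = 8, exact permutation, adjusted p = 0.0586 for both). Each passed without 1 plate, the lower side without plate 2 (0.0234) and the upper without plate 6 (0.0174; adjusted p = 0.0312 for both). With 1000 kb flanks CSMD1 was later than both sides, by 0.126 and 0.0522 (adjusted p = 0.0156 for both), and the upper side of CSMD2 no longer passed (-0.0107, adjusted p = 0.586). With 200 kb flanks CSMD3 was later than its lower side by 0.0578 (adjusted p = 0.0156) and its difference from the upper side was -0.00276 (adjusted p = 0.703).

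The nearest protein-coding genes with enough molecules were often far away. ZSCAN20, a zinc finger gene, starts the early side 12.4 kb below CSMD2 and had a timing of 0.138 ± 0.0488 (SD, n = 8). C1orf94, 1.15 kb above CSMD2, had 0.835 ± 0.0261. Both sides of CSMD2 are thus gene neighbours of opposite timing. Around CSMD1, the synaptic scaffold gene DLGAP2 (1227 kb below) had 0.691 ± 0.0860 (SD, n = 8), from only 234 molecules. The microcephaly gene MCPH1 (1412 kb above) had 0.248 ± 0.0488, from 836 molecules. Around CSMD3, the kinesin-binding gene SYBU (2531 kb below) had 0.556 and the transcription factor gene TRPS1 (1972 kb above) 0.644.

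Other genes had nearly the same distribution over the order, compared as the share of molecules in 20 equal parts of it, among genes on other chromosomes. For CSMD1 these were PCDH15, PDE10A, GRM7, CNTN6 and CHL1 (Pearson r over 20 parts 0.9992 to 0.9998), with timings of 0.860 to 0.883. For CSMD3 they included CCSER1, NDST4, CNTN5 and GHR (r 0.9938 to 0.9978), at 0.750 to 0.803. CSMD2 had looser matches in PTPRN2, COL5A1, KIAA1217, ZFHX3 and ASTN2 (r 0.9690 to 0.9787), at 0.618 to 0.655. The parts come from the same libraries, so r is a description.

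Per length, all 3 genes held more molecules than the autosomal median 50 kb step on most plates. Much of the DNA beside them held similar numbers. Over all plates the 500 kb flanks of CSMD3 held 559 and 565 molecules per 50 kb, against 559 in the gene. The flanks of CSMD1 held 127 below and 508 above, against 536. The 127 is an average over DNA partly without fragments. The steps from 2650001 to 2800000 held 0 molecules, and the step starting at 2850001 held 420. Those of CSMD2 held 282 below and 559 above, against 484. Density was not tested against the flanks. The ratio for CSMD3 was 1.09 at the lowest, 1.32 at the median and 1.84 at the highest plate, above 1 on 8 of 8 plates, and its mean log2 ratio was 0.40 ± 0.24 (SD, n = 8; exact permutation, adjusted p = 0.0234). CSMD2 had ratios of 0.954 to 1.32 with a median of 1.12, and a mean log2 ratio of 0.17 ± 0.16 (n = 8, exact permutation, adjusted p = 0.0352). CSMD1 had ratios of 0.892 to 1.82 with a median of 1.21, and its mean log2 ratio of 0.25 ± 0.36 did not pass (n = 8, exact permutation, adjusted p = 0.0938). With equal weight per cell CSMD1 passed (0.43, adjusted p = 0.0117) and CSMD2 did not (0.14, adjusted p = 0.0547). CSMD2 also lost its call without plate 2, 3, 4, 6, 7 or 8 (0.14 to 0.20 over all plates left out, highest adjusted p = 0.0703).

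Between the genotypes, CSMD2 replicated earlier in KO. Its timing in WT was 0.535 at the lowest plate, 0.660 at the median and 0.721 at the highest, and in KO 0.526, 0.551 and 0.635. KO was earlier on 7 of 8 plates, and the ranges overlap through plates 1, 2 and 5. The means were 0.646 ± 0.0618 in WT and 0.556 ± 0.0338 in KO (SD, n = 8). After each library was centred on its median gene, KO minus WT was -0.124 ± 0.0243 (SE; limma, adjusted p = 8.35e-04). Over all 4839 genes tested, 13.2% were called earlier and 4.88% later in KO, so a call in this direction was common. Without centring, the split over all genes turned to 7.85% earlier and 12.9% later, and CSMD2 kept its call at -0.0892 (limma, adjusted p = 0.0256).

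CSMD1 and CSMD3 had no call in the same fit. CSMD1 lay between 0.754 and 0.909 in WT, median 0.872, and between 0.784 and 0.935 in KO, median 0.875, with broad overlap. Its centred difference was -0.0259 ± 0.0324 (SE; limma, adjusted p = 0.652) and its uncentred difference 0.00897, of the opposite sign. CSMD3 lay between 0.732 and 0.813 in WT, median 0.780, and between 0.774 and 0.858 in KO, median 0.845. KO was later on 8 of 8 plates before centring, by 0.0590 ± 0.0353 (SD, n = 8; limma without centring, adjusted p = 0.0578). The KO libraries as a whole lay 0.0348 ± 0.0446 later, and the centred difference of CSMD3 was 0.0242 ± 0.0241 (SE; limma, adjusted p = 0.558). In the cells with at least 5000 molecules CSMD3 was called later in KO, by 0.0715 (limma, adjusted p = 0.00342), where 16.1% of 3689 genes were called earlier and 10.7% later.

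**Figure D3:**
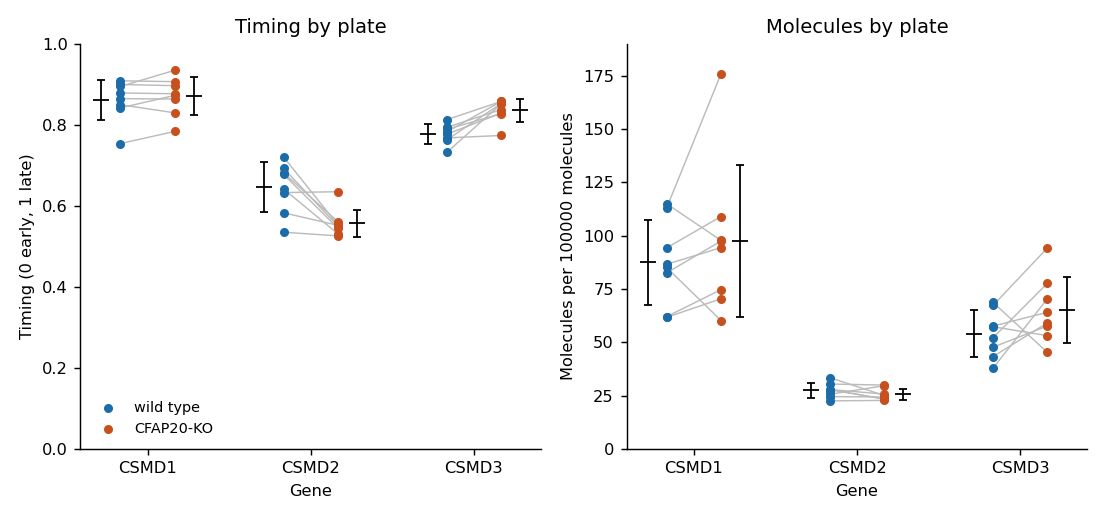
Timing (left, 0 early to 1 late) and molecules per 100000 molecules (right) of each gene on each of 8 plates, wild type in blue and CFAP20-KO in orange, with grey lines joining the genotypes of 1 plate and black bars for the mean and SD. CSMD2 is earlier in KO on 7 of 8 plates and CSMD3 later on 8 of 8; in molecules the genotypes overlap for all 3 genes.

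The earlier timing of CSMD2 lay in the middle of the gene. KO minus WT, before centring, was -0.0112 ± 0.0790 in part 1, -0.187 ± 0.0638 in part 2, -0.279 ± 0.0634 in part 3, -0.101 ± 0.0840 in part 4 and -0.0433 ± 0.0608 in part 5 (SD, n = 8). KO was earlier on 8 of 8 plates in parts 2, 3 and 4. Both ends of the gradient were thus closer between the genotypes than its middle.

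Steps were compared across the genome by limma, a comparison added after the profiles had been seen. Of 21414 steps tested, 9.13% were called earlier and 9.60% later in KO. In CSMD2, 8 of 12 steps had enough molecules in every library, and 4 of those 8 were called earlier in KO, none later. The 2 with the greatest change adjoin each other. The step from 33800001 to 33850000 went from 0.756 ± 0.0535 in WT to 0.482 ± 0.0782 in KO (SD, n = 8; centred difference -0.280, limma, adjusted p = 2.29e-05). The step from 33850001 to 33900000, which holds HMGB4 and CSMD2-AS1, went from 0.801 ± 0.0791 to 0.510 ± 0.102 (centred difference -0.297, limma, adjusted p = 1.05e-05). The remaining calls were the steps starting at 33650001 (-0.160, limma, adjusted p = 0.0101) and 33900001 (-0.168, limma, adjusted p = 0.00447).

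The shift can also be read as a distance. The WT profile of CSMD2 crossed 0.5 at position 33693323 on average and the KO profile at 33855931. On single plates the KO crossing lay 97.0 to 232 kb further into the gene, 163 ± 44.1 kb on average (SD, n = 8), on 8 of 8 plates. This reading was chosen after the profile had been seen and is given without a test. No tested step of the upper 500 kb flank of CSMD2 was called. The gene C1orf94, which lies in that flank, was called earlier in KO as a whole (-0.0972, limma, adjusted p = 0.0271). In the lower flank no step had enough molecules in every library, so a change there could not be tested.

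In CSMD3, 19 of 23 steps were tested and 3 were called later in KO, none earlier. They are the steps of the early dip. The step starting at 112550001 went from 0.692 ± 0.0586 in WT to 0.793 ± 0.0485 in KO (SD, n = 8; centred difference 0.0950, limma, adjusted p = 0.0422; blocked on plate, 0.0554). The step at 112600001 went from 0.654 ± 0.0692 to 0.795 ± 0.0561 (0.135, limma, adjusted p = 0.0118). The step at 112650001 went from 0.706 ± 0.0461 to 0.858 ± 0.0478 (0.147, limma, adjusted p = 0.00476). The dip was thus seen in the WT values, and the KO values of these steps lay within the range of the other KO steps of the gene.

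A second dip in WT lay across the upper edge of CSMD3, in the step from 113400001 to 113450000, at 0.678 ± 0.0807 in WT and 0.834 ± 0.0788 in KO (SD, n = 8; centred difference 0.151, limma, adjusted p = 0.00920). A flanking step on each side of the gene was also called later in KO, at 112100001 (0.104, limma, adjusted p = 0.0373; blocked on plate, 0.0515) and at 113750001 (0.120, limma, adjusted p = 0.0453; blocked on plate, 0.0558). In 100 kb steps 1 of 11 in CSMD3 was called later, and 8 of 11 in cells of at least 5000 molecules, where 20.6% of all such steps were called later and 13.7% earlier. None of the 15 steps tested in CSMD1 was called by limma, and 0 had an unadjusted p under 0.05. Only 15 of its 40 steps had enough molecules in every library.

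**Figure D4:**
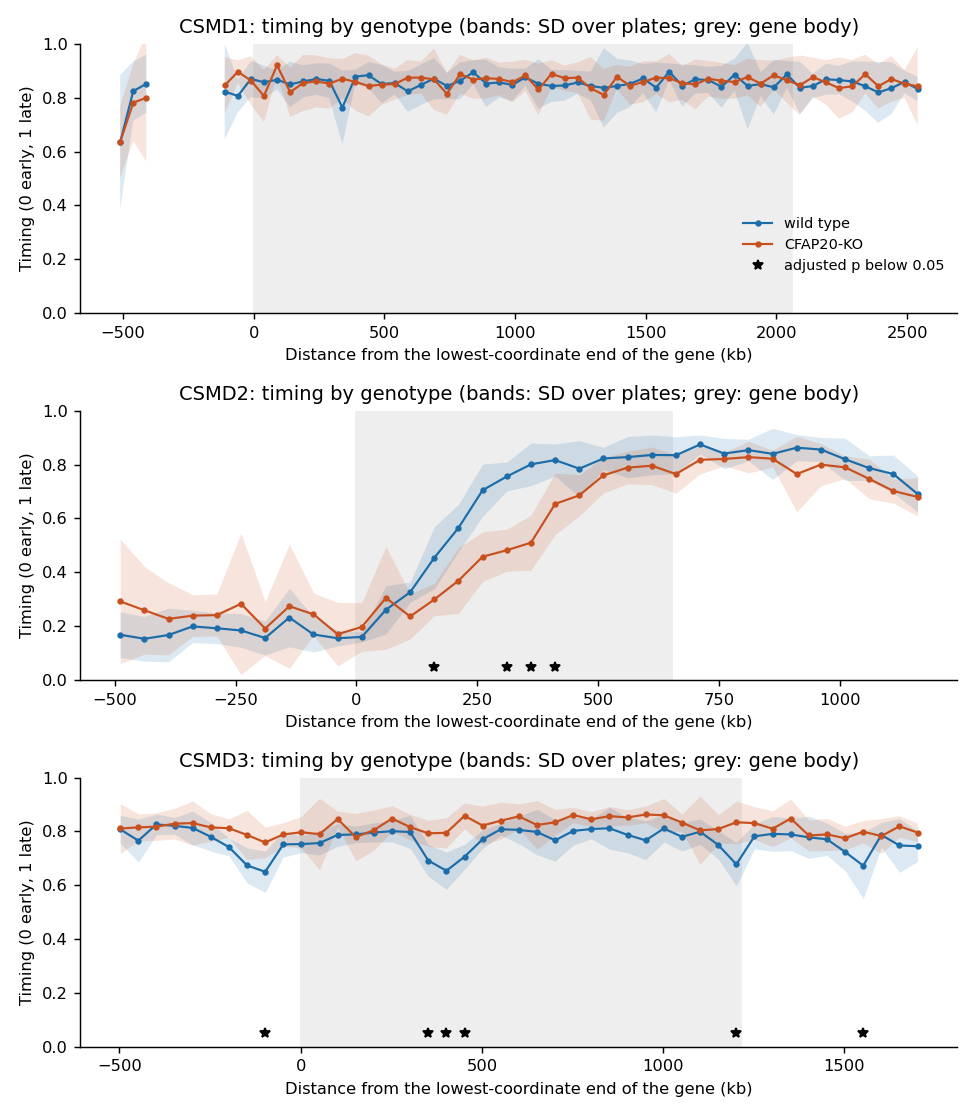
Timing (vertical axis, 0 early to 1 late) in 50 kb steps against distance from the lowest-coordinate end of each gene (kb), wild type in blue and CFAP20-KO in orange, lines for the mean and bands for the SD over 8 plates; grey marks the gene and stars mark steps with adjusted p under 0.05. On single plates, which are not drawn, the point where CSMD2 timing crosses 0.5 lies 97.0 to 232 kb further along in KO. The starred steps of CSMD3 are dips of the wild-type curve.

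The change in CSMD2 can also be described by tracks in single cells. Tracks are runs of the same molecules in the same ordered cells, so they are no separate evidence for it. The gene was cut into 3 equal lengths and the order into 4 quartiles. In the middle length, 45.5% of WT cells of quartile 4 had a track (91 of 200, exact 95% interval 38.5% to 52.7%) and 11.1% of KO cells (23 of 208, 7.14% to 16.1%). In quartile 2 the shares were 13.8% in WT (4 of 29, 3.89% to 31.7%) and 55.6% in KO (15 of 27, 35.3% to 74.5%). The middle length was thus labelled mostly in late WT cells and in earlier KO cells. In the lowest-coordinate length, tracks occurred in quartile 4 in 10.0% of WT cells (20 of 200, 6.22% to 15.0%) and in 0.481% of KO cells (1 of 208, 0.0122% to 2.65%). In the highest-coordinate length the shares of quartile 4 were 36.5% and 32.2%, with overlapping intervals. Cells of all plates were pooled, and the intervals cover counting error only.

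**Figure D5:**
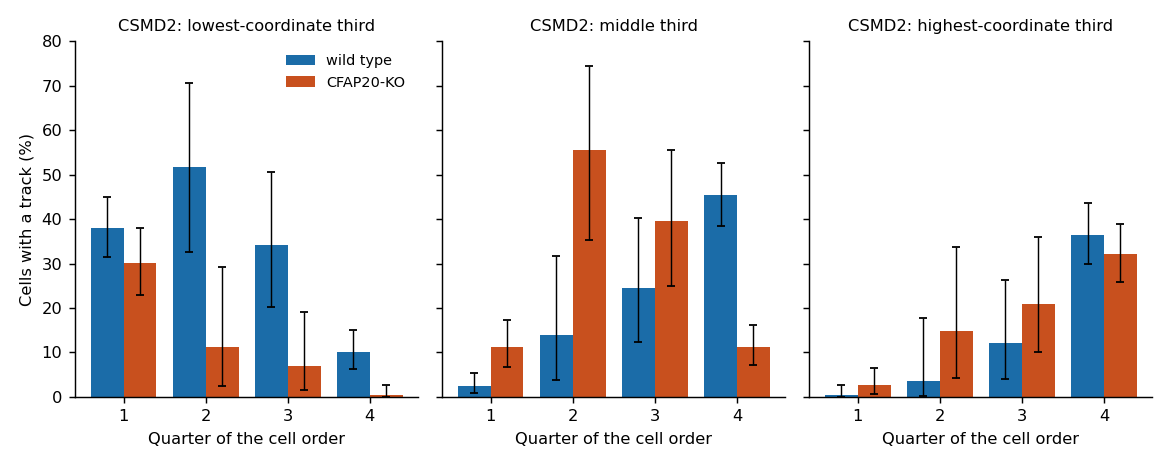
Share of cells of at least 5000 molecules with a track (percent, vertical axis) in each of 3 equal lengths of CSMD2 by quartile of the cell order (horizontal axis, 1 early, 4 late), wild type in blue and CFAP20-KO in orange, with exact 95% binomial intervals. In the middle length quartile 2 holds 13.8% in WT and 55.6% in KO, and quartile 4 45.5% and 11.1%.

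In amount of labelled DNA the 3 genes had no call. CSMD1 held 61.7 to 115 molecules per 100000 in WT (median 85.8) and 60.2 to 176 in KO (median 96.0). KO minus WT was 0.08 ± 0.11 on the log2 scale (SE; limma voom, adjusted p = 0.828). CSMD2 held 22.5 to 33.4 in WT (median 27.8) and 22.7 to 29.9 in KO (median 24.6), and its difference was -0.09 ± 0.10 (limma voom, adjusted p = 0.800). CSMD3 held 37.8 to 68.7 in WT (median 54.7) and 45.2 to 94.3 in KO (median 61.6). Its difference was 0.27 ± 0.10 on the log2 scale, higher in KO on 6 of 8 plates, and did not pass (limma voom, adjusted p = 0.210). Over 9265 genes 1.25% were called lower and 0.194% higher in KO.

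The CSMD3 difference passed or not depending on the fit and on single plates. In a fit blocked on plate it passed, at 0.27 (limma voom, adjusted p = 0.0385), and 1.50% of genes were then called lower and 0.432% higher. Without plate 6, where in CSMD3 WT held 68.7 and KO 45.2 molecules per 100000, it was 0.41 (limma voom, adjusted p = 0.0124), and without plate 1 it was 0.17 (limma voom, adjusted p = 0.529). Among the 50 kb steps, limma voom called none of 40 in CSMD1, none of 12 in CSMD2 and none of 23 in CSMD3, where 0.295% of 53903 steps were called lower and 0.0278% higher. At an unadjusted p under 0.05 there were 1 lower step in CSMD1, 1 lower and 2 higher in CSMD2, and 3 higher in CSMD3.

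Within the last tercile of the order CSMD2 was lower in KO, by -0.54 on the log2 scale (limma voom, adjusted p = 0.00423). The tercile is cut from the order that also gives timing. The value is thus no separate evidence from the earlier timing of CSMD2 in KO. In that fit 14.6% of 3153 genes were called lower and 6.28% higher. Neither CSMD1 nor CSMD3 was called there.

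Tracks were fewer in KO in CSMD2. On single plates there were 63.6 to 112 tracks per 100 WT cells (median 95.2) and 40.5 to 96.1 per 100 KO cells (median 60.5). The difference was -28.9 ± 14.9 (SD, n = 8), with KO below WT on 8 of 8 plates (exact permutation, adjusted p = 0.0234). The call was lost with gaps of up to 20 kb (-27.4) or tracks of at least 5 molecules (-16.5; exact permutation, adjusted p = 0.0703 for both). The adjustment runs over all track measures of the genes together. Even the smallest p with 8 plates, 0.00781, passes there only if other measures also have low p-values. The loss of this call therefore does not by itself show a weaker difference in CSMD2. In CSMD1 the plates gave 93.9 to 379 in WT (median 269) and 83.3 to 461 in KO (median 176), a difference of -51.9 ± 78.6 (n = 8, exact permutation, adjusted p = 0.141). Without plate 4, where KO had 461, the CSMD1 difference was -71.5 and passed (exact permutation, adjusted p = 0.0352). In CSMD3 they gave 133 to 249 in WT (median 168) and 93.0 to 236 in KO (median 160), a difference of -27.2 ± 66.0 (n = 8, exact permutation, adjusted p = 0.448), which was -8.88 without plate 6 (exact permutation, adjusted p = 0.896) and -16.6 without plate 4 (0.797). The whole genome moved the same way: per Mb of autosome there were 115 ± 23.5 tracks per 100 WT cells and 77.0 ± 15.6 per 100 KO cells, and a WT cell held 26082 ± 4825 molecules against 18271 ± 2854 in KO. Per Mb the values were 126 and 101 in CSMD1, 139 and 94.8 in CSMD2, and 150 and 127 in CSMD3. The part of cell depth in the track numbers was not tested.

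Tracks in CSMD1 and CSMD2 held fewer molecules in KO. In CSMD1 the plates gave 4.13 to 8.43 molecules per track in WT (median 6.24) and 3.97 to 6.82 in KO (median 5.58), a difference of -0.834 ± 0.614, lower on 8 of 8 plates (n = 8, exact permutation, adjusted p = 0.0234). In CSMD2 they gave 4.52 to 6.44 in WT (median 5.73) and 4.12 to 5.64 in KO (median 4.95), a difference of -0.701 ± 0.373, lower on 8 of 8 plates (n = 8, exact permutation, adjusted p = 0.0234). In CSMD3 the medians were 5.80 and 5.42, and the difference of -0.0855 ± 0.614 did not pass (n = 8, exact permutation, adjusted p = 0.695). Over all autosomes tracks held 5.43 ± 0.501 molecules in WT and 5.16 ± 0.431 in KO, again with fewer molecules per cell in KO, whose part in this was not tested. Both calls were lost with gaps of up to 20 kb or tracks of at least 5 molecules (adjusted p = 0.0879 in each), and that of CSMD2 also with gaps of up to 5 kb (0.0703).

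Track length was not called in any of the 3. It was 15.8 ± 2.79 kb in WT and 14.7 ± 2.63 kb in KO in CSMD1, 13.5 ± 1.48 and 12.8 ± 1.57 kb in CSMD2, and 14.0 ± 1.42 and 15.3 ± 2.07 kb in CSMD3 (SD, n = 8; exact permutation, adjusted p = 0.123, 0.342 and 0.141). With gaps of at most 5 kb, tracks in CSMD1 were shorter in KO by 1.25 kb, which passed (exact permutation, adjusted p = 0.0234, n = 8). With gaps of up to 20 kb the CSMD1 difference had the other sign (2.13 kb), as had that of CSMD3 with gaps of up to 5 kb (-0.255 kb).

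A pair of lists sets the 3 genes in context. The relatives with CUB or sushi domains number 34, among them complement regulators and tolloid-like proteases, and 26 were measured for timing. Their median was 0.252, next to the 0.246 of all genes, with 14 of 26 later than that. The earliest was SEZ6, a neuronal CUB and sushi protein, at 0.157 ± 0.0439 (SD, n = 8), and the latest NETO1, an auxiliary subunit of kainate receptors, at 0.845 ± 0.0459. CSMD1 was later than all 26 and CSMD3 later than all but NETO1. Of 16 relatives tested for timing between genotypes, 3 were called earlier in KO and 0 later: TLL2, a tolloid-like protease (-0.214, limma, adjusted p = 1.12e-05), SUSD4, a complement inhibitor (-0.161, limma, adjusted p = 3.89e-04), and SEZ6L (-0.0898, limma, adjusted p = 0.0341). That is 18.8% of the relatives, against 13.2% called earlier and 4.88% later over all genes. The median difference of the 16 was -0.00114, against -0.00115 over all genes. None of 27 was called in molecules by limma voom, with 1 lower and 0 higher at an unadjusted p under 0.05.

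The other autosomal genes of at least 500 kb number 300, of which 298 were measured for timing. Their median was 0.607, and 280 of 298 were later than the median gene. The earliest was LRRC37A2 at 0.160 and the latest CNTN4, a contactin of neurons, at 0.871. Among them 5 were later than CSMD1, 48 later than CSMD3 and 148 later than CSMD2, so CSMD2 lay near their middle and CSMD1 at their late end. Of 296 tested between genotypes, 54 were called earlier in KO and 14 later (18.2% and 4.73%, against 13.2% and 4.88% over all genes), with a median difference of -0.0160. In molecules 17 of 298 were called lower and 8 higher (5.70% and 2.68%, against 1.25% and 0.194% over all genes), with a median log2 difference of 0.06, against -0.07 over all genes. Of the 17 lower, 12 lie on chromosome 7 and 4 on chromosome 20, and scaling each gene by its own chromosome cut the lower calls over all genes from 116 to 36.

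Of the neighbours tested between genotypes, C1orf94, beyond the late end of CSMD2, was called earlier in KO (-0.0972 ± 0.0301 SE, limma, adjusted p = 0.0271). SYBU, below CSMD3, was called later (0.176 ± 0.0281 SE, limma, adjusted p = 1.24e-04). MCPH1 and TRPS1 were not called (-0.0247 and 0.0110, limma, adjusted p = 0.734 and 0.835).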

How the data were processed

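Each line of the deposited files gives, per the file headers, 1 fragment with its cell, chromosome, position in base pairs, length with a sign, and WT or KO as treatment; the authors' values are positions, not counts. Their build was GRCh38 (the submitters' processing notes); the sources used here name no aligner or duplicate removal. Every fragment counted as 1 molecule, and 6.35% to 8.81% shared cell, position and direction. Genotype came from the treatment column, since titles put both genotypes on each plate while the genotype label names CFAP20-KO. No 2 plates held the same data (28 pairs, chi-squared over degrees of freedom 5.08 to 17.5).

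A correspondence analysis of molecules in 500 kb autosomal bins gave the order of cells as ranks on its first axis (18.8% of variation; gene-rich end early). Timing of listed genes needed at least 10 molecules in every plate, and genotype tests of timing at least 10 in every library. Profile steps were given a timing wherever no plate was empty, and gene parts and flanks had no minimum. The 16 libraries, 1 for each plate and genotype, were compared with limma 3.58.1 in R 4.3.3: voom for molecules (mean of at least 10, scaled by total), and timing centred on each library's median; calls needed a Benjamini-Hochberg adjusted p under 0.05. Single values used exact sign-flip permutation over 8 plates, smallest p 0.00781. Plates pair the libraries, since titles put both genotypes on each; over genes, WT and KO deviations of 1 plate had a mean correlation of 0.0167 (-0.0472 to 0.0497).

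Named genes were the 3 members, their nearest measured neighbours, 5 like genes each, and in the lists the earliest, the latest and called relatives; called giant genes are counted. An item withheld here is not reported. Members and lists were chosen with earlier results of these data known. Alternatives changed minimum molecules, bins, weights, flanks, gaps, steps, scaling, plates and the block. The procedures were tested on simulated data.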

Additional observations from a re-analysis of the deposited data

Results flagged for a closer look

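Among 36 sets of 8 plate values, 6 had 1 plate whose gap to the next exceeded the 95% limit of Dixon's test for 8 values; chance gives about 1 in 20 such sets.

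CSMD1 timing in WT was 0.754 on plate 8, with the next plate at 0.842. CSMD1 in KO held 176 molecules per 100000 on plate 4, with the next plate at 109, and on the same plate it had 461 tracks per 100 KO cells, with the next at 259. CSMD2 timing in KO was 0.635 on plate 2, with the next at 0.561. CSMD3 timing in KO was 0.774 on plate 8, with the next at 0.828. The density of CSMD3 was 1.84 times the autosomal median step on plate 7, with the next at 1.40.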

How the results depend on the processing

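Of all values recomputed, 584 stayed on their side of the threshold (counts within 1.5 times); of these, 9 that were not called changed sign and 575 did not. For the others the cause was not tested. The 9 were CSMD3 minus its upper flank (-0.00276, 200 kb flanks), CSMD1 track length (2.13 kb with 20 kb gaps, 0.348 kb with at least 5 molecules), CSMD3 track length (-0.255 kb, 5 kb gaps), CSMD3 molecules per track (0.281 with 20 kb gaps, 0.0205 without plate 5), CSMD1 log2 molecules (-0.03, last tercile) and CSMD1 timing between genotypes (0.00897 without centring, 0.0173 in cells of at least 5000 molecules). Equal weight per cell gave timings of 0.533, 0.514 and 0.558 for CSMD1, CSMD2 and CSMD3. It turned CSMD1 minus CSMD3 to -0.0251, passing in that direction. It also gave log2 densities of 0.43 (CSMD1, now passing) and 0.14 (CSMD2, no longer). Cells of at least 5000 molecules gave CSMD3 a timing of 0.708 and a difference from its upper flank of 0.0208, now passing. Flanks of 1000 kb gave 0.126 and 0.0522 for CSMD1, now passing, and -0.0107 above CSMD2, no longer passing; flanks of 200 kb gave 0.0578 below CSMD3, now passing. In CSMD1, track length differed by -1.25 kb with 5 kb gaps and -1.16 kb with tracks of at least 2 molecules, both now passing, and molecules per track by -0.722 (20 kb gaps) and -0.856 (at least 5 molecules), no longer passing. In CSMD2, calls were lost for tracks per 100 cells at -27.4 (20 kb gaps) and -16.5 (at least 5 molecules), and for molecules per track at -0.323 (5 kb gaps), -0.747 (20 kb) and -0.968 (at least 5 molecules). The adjusted p of each track measure also depends on the p-values of the other track measures.

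Genes lower in molecules in KO numbered 116, and 71 with median-ratio factors, 36 scaled by chromosome and 461 in the last tercile; genes higher numbered 18, and 198 in that tercile. Steps lower and higher numbered 159 and 15, and 366 and 41 at 100 kb and 95 and 9 at 25 kb. Timing without centring called 380 genes earlier and 622 later against 638 and 236, and cells of at least 5000 molecules 395 later. Among 100 kb steps, 1 in CSMD3 was later, and in those cells 8 were, with 3862 over all.

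With the plate as a replicate block, 40 genes and 36 steps were higher in molecules in KO; beyond the CSMD3 calls given above, the block changed no call on a whole gene of the 3. Leaving out 1 plate gave 0.0151 to 0.0234 and 0.0109 to 0.0174 for CSMD3 against its flanks, 0.14 to 0.20 for CSMD2 density (log2), -71.5 to -38.3 for CSMD1 tracks per 100 cells, and 77 to 105 genes lower (77 without plate 7) and 8 to 24 higher (8 to 11 without plate 1, 2, 5 or 7). Depth limits the steps: 15 of 40 in CSMD1 could be tested for timing.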
